A study of Homo sapiens with 9 samples.

Results

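PRL-295 was compared directly with CDDO-Me in HaCaT cells, an immortalised human keratinocyte line, to ask which genes separate a non-electrophilic from an electrophilic activator of NRF2. The comparison sets the 3 PRL-295 against the 3 CDDO-Me libraries, 6 of the 9 RNA-seq libraries of the series, assigned to their groups by their labels, and all genes entered it. The 3 DMSO libraries also entered the fit and share its estimate of the spread, so each p-value rests on all 9. CDDO-Me was given at 250 nM and PRL-295 at 10 µM, each for 14 h. The doses differ, and each compound was measured at 1 dose only, so a difference between compounds and a difference between doses cannot be told apart. The DMSO libraries came from cells kept for 14 h in 1% DMSO and are also given beside the compounds as the level in control cells. The labels record DMSO for these controls only, and do not say whether the compound cultures held it. All cells were of 1 line, grown in DMEM. Nothing in the labels says that replicate libraries are separate cultures, so p-values measure the spread between these samples, which may be technical.

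NRF2 (gene NFE2L2) is the transcription factor that switches on antioxidant and detoxifying genes. In resting cells KEAP1 binds it and directs it to the proteasome. Electrophiles such as CDDO-Me (bardoxolone methyl, a triterpenoid) react with cysteines of KEAP1, which frees NRF2, and such reagents can react with cysteines of other proteins too. PRL-295 is a code name, and the study's title counts it among non-electrophilic activators. Keratinocytes of the basal layer carry KRT5 and KRT14 and hold to the basement membrane through hemidesmosomes, and cells at a wound edge switch on KRT6, KRT16 and KRT17.

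The libraries held 23383800 to 32942156 counted reads, and 3 counts, taken as the detection floor of a library, correspond to 0.0922 to 0.127 CPM (counts per 1e6 reads, scaled by TMM). CDDO-Me library 1 stood apart, with 14543 genes that had a count against 17821 to 23271 in the other libraries. Libraries also differed in how counts moved with GC content: the correlation was -0.546 in CDDO-Me library 2 and -0.333 in PRL-295 library 1, and between -0.143 and 0.271 in the others. The part of these differences in the results was tested only through the GC and length correction and the fits without a library. The 3 CDDO-Me libraries also spread more widely, with a median SD of log2 CPM over genes of 0.373, against 0.223 for PRL-295 and 0.229 for DMSO. Keratinocyte markers were present in all libraries: the summed level of 8 markers ran from 21400 to 24300 CPM with CDDO-Me, 14000 to 14900 CPM with PRL-295 and 16500 to 18200 CPM with DMSO. Of 10 immune markers 5 had no count in the 6 compound libraries (PTPRC, CD3D, MS4A1, TYROBP and CD207), and the 10 summed to at most 2.06 CPM. Melanocyte markers summed to at most 7.78 CPM there (TYR at 0), endothelial markers to at most 27.6 CPM (PECAM1 and KDR at 0) and fibroblast markers to at most 88.8 CPM (COL3A1, LUM and DCN at 0). In bulk RNA, fewer cells that express a gene and less RNA per cell cannot be told apart.

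Of 16239 tested genes, 258 (1.59%) differed between the compounds at an adjusted p under 0.05. Adjusted p-values throughout are from the edgeR quasi-likelihood test with Benjamini-Hochberg adjustment over all tested genes, and log2 differences are PRL-295 minus CDDO-Me. With PRL-295, 147 genes (0.905%) were higher and 111 (0.684%) lower. The difference was at least 2-fold for 58 of the higher and 52 of the lower genes. The CPM of the 3 PRL-295 and the 3 CDDO-Me libraries did not overlap for any of the 258, and for 3994 of all tested genes. Higher genes were richer in G and C, with a median GC content of 55.9% against 49.6% for lower and 49.2% for all tested genes. After each library was corrected for GC content and gene length, 94 genes were higher and 143 lower, and 162 of the 258 calls were shared with that fit. A fit of the 6 compound libraries only, without DMSO, called 45 genes (27 higher, 18 lower), all among the 258, and 60 of the 96 called genes that were chosen for naming did not pass in it. Those described here that did not pass in it are given with its adjusted p at the end of their paragraphs. Of the 96, 40 did not pass with a replicate block, 32 in limma voom with a weight per group and 70 at a fold threshold of 1.5. Losses in these settings are mostly not given gene by gene.

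**Figure D1:**
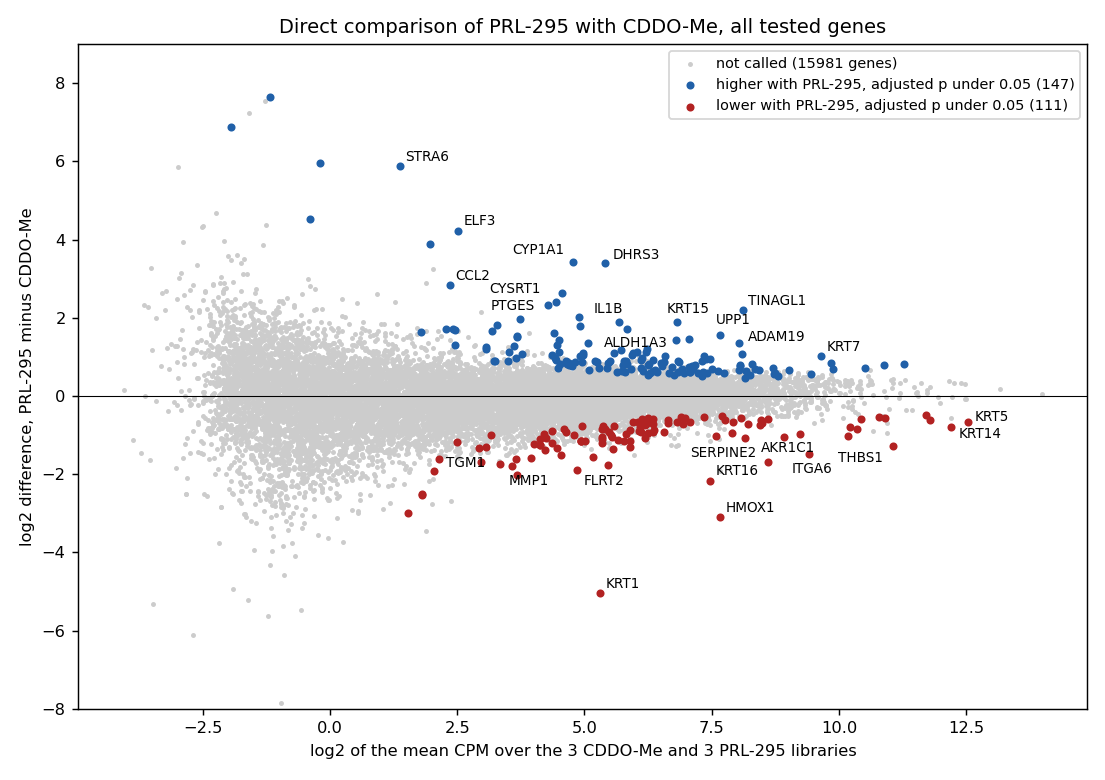
Each point is 1 of 16239 tested genes, with the log2 of its mean CPM over the 6 compound libraries on the x axis and the log2 difference PRL-295 minus CDDO-Me on the y axis. Coloured points are the 147 genes higher and the 111 lower with PRL-295 at an adjusted p under 0.05; HMOX1 lies at -3.10 and CYP1A1 at 3.43.

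Heme oxygenase 1 (HMOX1, chromosome 22, 35380361 to 35394214, plus strand, hg38), which opens the heme ring to biliverdin, iron and carbon monoxide, had the largest difference among 121 tested genes of NRF2 and its target families. It stood at 364, 371 and 352 CPM in the 3 CDDO-Me libraries and at 39.0, 47.7 and 39.7 CPM in the 3 PRL-295 libraries. The DMSO libraries held 9.24, 10.2 and 13.9 CPM. The 3 groups did not overlap, and PRL-295 lay between DMSO and CDDO-Me. The level with PRL-295 was 8.59-fold lower than with CDDO-Me (log2 difference -3.10, 95% interval -3.46 to -2.75, adjusted p = 1.16e-05), and the call held under all 22 alternative settings. Of 17 tested genes of heme synthesis, breakdown and transport, HMOX1 was the 1 that passed, and their median log2 difference was 0.13, beside -0.007 for all tested genes. For the ferritin heavy chain FTH1, which stores the iron that heme breakdown frees and was chosen after its values were seen, the difference was -0.69 (95% interval -1.19 to -0.19, adjusted p = 0.156).

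In the 8 lists that cover NRF2, its regulators and its target families, 2 of those 121 genes were higher and 2 lower, or 3.31% beside 1.59% of all tested genes, with a median log2 difference of 0.09. Among quinone and carbonyl detoxifying enzymes 1 of 20 passed: AKR1C1, an aldo-keto reductase that inactivates progesterone and reduces carbonyls. Its level was 638, 939 and 827 CPM with CDDO-Me and 392, 424 and 410 CPM with PRL-295, against 35.0 to 43.9 CPM with DMSO. All 3 PRL-295 libraries lay under all 3 CDDO-Me libraries and far over DMSO. The difference was 1.96-fold (log2 difference -0.97, 95% interval -1.29 to -0.65, adjusted p = 0.00777) and did not pass without PRL-295 library 3 (adjusted p = 0.0761). Its neighbours AKR1C2 and AKR1C3, which were chosen after their values were seen, had log2 differences of -0.91 and -0.90 that missed the threshold (adjusted p = 0.0766 and 0.1). The 3 genes are closely similar in sequence and overlap in the annotation, so reads may be shared between them. AKR1C1 (adjusted p = 0.0596) did not pass in the fit of the 6 compound libraries.

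The genes that make glutathione and bring in cystine for it missed the threshold, with 1 carrier subunit passing the other way. SLC7A11, the cystine carrier of the xc- exchanger, stood at 153, 193 and 136 CPM with CDDO-Me and at 106, 31.7 and 64.3 CPM with PRL-295. The groups did not overlap, but the PRL-295 libraries were scattered, and the log2 difference of -1.26 had a 95% interval of -2.01 to -0.50 (adjusted p = 0.1). SLC7A11 did pass in 5 of the 22 alternatives, among them GC and length correction (log2 difference -0.82, adjusted p = 0.0482). GCLC and GCLM, the catalytic and modifier subunits of glutamate-cysteine ligase, had differences of -0.30 (-0.61 to 0.00, adjusted p = 0.292) and -0.54 (-0.86 to -0.21, adjusted p = 0.0993). GCLM passed in 2 of the 22 alternatives. SLC3A2, the heavy chain that partners SLC7A11 and several other amino acid carriers, was higher with PRL-295. It measured 775, 653 and 750 CPM with CDDO-Me, 1100, 1250 and 1160 CPM with PRL-295 and 965 to 1090 CPM with DMSO, so that CDDO-Me was the lowest group. The difference was 1.61-fold (adjusted p = 0.00777) and did not pass without PRL-295 library 3 (adjusted p = 0.0532). SLC7A5, a large neutral amino acid carrier that pairs with SLC3A2, was 1.75-fold higher (adjusted p = 0.025), a call lost without CDDO-Me library 3, DMSO library 2 or PRL-295 library 1, 2 or 3 (adjusted p 0.0519 to 0.101). SLC3A2 (adjusted p = 0.074) and SLC7A5 (adjusted p = 0.111) did not pass in the fit of the 6 compound libraries.

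NQO1, the quinone reductase used as a standard NRF2 readout, had its higher values with PRL-295. The 3 CDDO-Me libraries held 538, 862 and 818 CPM and the 3 PRL-295 libraries 976, 1270 and 1030 CPM, against 342 to 419 CPM with DMSO. These groups did not overlap, yet the log2 difference of 0.56 (95% interval 0.18 to 0.94) missed the threshold (adjusted p = 0.137). Some other targets had overlapping ranges under both compounds. TXNRD1, which reduces thioredoxin, stood at 603 to 738 CPM with CDDO-Me and 585 to 617 CPM with PRL-295, and the 95% interval of the ratio of PRL-295 to CDDO-Me ran from 0.773 to 1.06. PGD, an NADPH-forming enzyme of the pentose phosphate pathway, stood at 610 to 685 CPM and 628 to 711 CPM, with a ratio interval of 0.879 to 1.18, and its log2 difference of 0.03 became -0.25 with GC and length correction. The ranges of OSGIN1, an oxidative stress growth inhibitor, and AKR1B10, a retinal and aldehyde reductase, did not overlap, with lower values for PRL-295 and ratio intervals of 0.67 to 1.04 (adjusted p = 0.381) and 0.556 to 0.867 (adjusted p = 0.101). No gene passed among 17 of the thioredoxin system and 13 of NADPH supply.

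None of 15 tested genes of NRF2 regulation passed. NFE2L2 itself stood at 65.5, 101 and 75.6 CPM with CDDO-Me and 74.1, 28.7 and 69.1 CPM with PRL-295, and these ranges overlap (log2 difference -0.50, 95% interval -1.17 to 0.18). KEAP1 had a difference of 0.10 (-0.17 to 0.37), and of -0.07 with GC and length correction. BACH1, the repressor that competes with NRF2 and holds HMOX1 down, stood at 42.4 to 49.4 CPM with CDDO-Me and at 28.4, 10.1 and 25.6 CPM with PRL-295 (log2 difference -1.08, -1.75 to -0.40, adjusted p = 0.109). PRL-295 library 2 had the lowest value of the 3 for SLC7A11, NFE2L2 and BACH1. Of the glutathione transferases and peroxidases, 1 of 17 passed: GPX4, which removes lipid peroxides, was 1.73-fold higher with PRL-295 (adjusted p = 0.0298). That call was lost without CDDO-Me library 3, DMSO library 1 or 2 or PRL-295 library 2 or 3 (adjusted p 0.0507 to 0.116), and with GC and length correction (adjusted p = 0.0904). GPX4 (adjusted p = 0.128) did not pass in the fit of the 6 compound libraries.

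**Figure D2:**
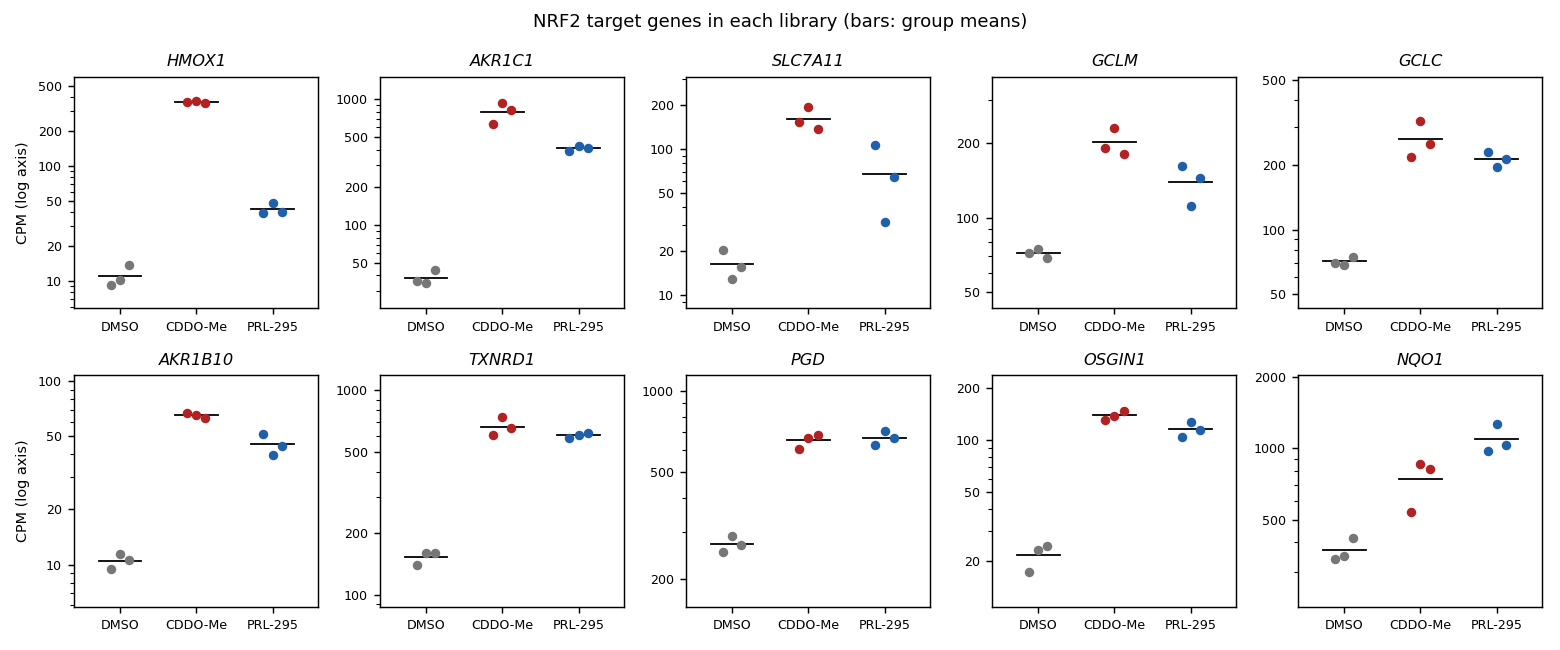
CPM on a log axis for 10 NRF2 target genes in each library, with a point per library and a bar at the mean of each group of 3. HMOX1 and AKR1C1 pass the direct test; TXNRD1 and PGD lie in overlapping ranges under both compounds, and NQO1 is highest in the 3 PRL-295 libraries without passing.

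Genes of retinoid handling were higher with PRL-295 wherever they passed. Retinoic acid made from vitamin A restrains keratinisation, and its targets include the enzymes that control its own level. Of 16 tested genes for retinoid uptake, metabolism and receptors, 5 were higher and none lower, with a median log2 difference of 0.287. Over all tested genes 0.905% were higher. STRA6, the membrane receptor that imports retinol, had 0, 6 and 1 reads in the CDDO-Me libraries and 139, 122 and 133 reads in the PRL-295 libraries. PRL-295 held 4.65 to 5.7 CPM and DMSO 8.62 to 15.2 CPM, and the CDDO-Me libraries were all far under both. The fitted log2 difference was 5.87 (95% interval 4.46 to 7.29, adjusted p = 0.00152), and its size depends on those few reads.

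DHRS3, which reduces retinal back to retinol, stood at 3.88, 8.32 and 9.78 CPM with CDDO-Me and at 65.4, 85.7 and 81.1 CPM with PRL-295. DMSO ran from 87.0 to 94.7 CPM, just over PRL-295, and the CDDO-Me libraries were far under both. The fold was 10.6 (log2 difference 3.41, 95% interval 2.78 to 4.03, adjusted p = 0.000199). ALDH1A3 (chromosome 15, 100877714 to 100916626, plus strand), which oxidises retinal to retinoic acid, held 59.4, 59.2 and 60.5 CPM with CDDO-Me and 148, 169 and 169 CPM with PRL-295. The PRL-295 range met the DMSO range (143 to 153 CPM), while CDDO-Me lay apart from both (log2 difference 1.44, 1.22 to 1.67, adjusted p = 8.75e-05). The antisense gene RP11-66B24.4 overlaps ALDH1A3 and was also higher, and reads of the pair may not be told apart. DHRS3 and ALDH1A3 passed under all 22 alternatives.

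The cytochromes that degrade retinoic acid passed with all libraries but not without most single ones. CYP26A1 had 0, 0 and 0 reads in the CDDO-Me libraries and 28, 20 and 20 in the PRL-295 libraries, which at a floor of 3 counts per library makes it at least 8.21-fold higher. Its adjusted p of 0.0305 did not hold without CDDO-Me library 2 or 3, DMSO library 1 or 3 or PRL-295 library 1, 2 or 3 (adjusted p 0.0558 to 0.0916). CYP26B1, chosen after its values were seen, was 1.83-fold higher (15.5, 18.9 and 25.6 CPM with CDDO-Me and 36.3, 37.3 and 36.1 CPM with PRL-295, adjusted p = 0.0424). That call was lost without CDDO-Me library 1 or 2, DMSO library 1, 2 or 3 or PRL-295 library 1, 2 or 3 (adjusted p 0.063 to 0.14). DMSO held 32.1 to 34.6 CPM of CYP26B1, under each PRL-295 library and over each CDDO-Me library. CYP26A1 (adjusted p = 0.159) and CYP26B1 (adjusted p = 0.177) did not pass in the fit of the 6 compound libraries.

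The promoter of CYP26A1 carries a retinoic acid response element, a direct repeat of the receptor's half-site with a spacer of 5 bases. RefSeq windows of 300 bases (GRCh38.p14), from 250 before to 50 after each annotated start, were searched on both strands for that repeat, called DR5. It was found in 0.0883% of all 35116 windows. Among called genes, 105 of the 147 higher and 79 of the 111 lower had a window. A match lay in 1 of 164 windows of higher genes, that of CYP26A1, and in 0 of 136 windows of lower genes. The stretch below (chr10:93073773-93073849, plus strand) is shown because its gene had no read with CDDO-Me, with the repeat, read on the other strand, in capitals 90 to 74 bases before the start.
CYP26A1: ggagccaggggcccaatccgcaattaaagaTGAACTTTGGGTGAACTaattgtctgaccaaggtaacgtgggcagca
The windows of STRA6, DHRS3, ALDH1A3 and CYP26B1 held no such match, which says only that these letters are not in those windows.

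CYP1A1, a xenobiotic-metabolising cytochrome P450 under the aryl hydrocarbon receptor, was higher with PRL-295. It stood at 3.88, 4.42 and 5.67 CPM with CDDO-Me, at 14.8, 14.8 and 12.3 CPM with DMSO and at 47.8, 61.0 and 41.9 CPM with PRL-295. The groups did not overlap, and the compounds lay on opposite sides of DMSO. The fold was 10.8 (log2 difference 3.43, 95% interval 2.95 to 3.92, adjusted p = 6.12e-05), and the call held under all 22 alternatives. It was the 1 of 10 tested genes of the aryl hydrocarbon receptor list to pass, and the list's median was -0.082. The receptor binds the core letters GCGTG, which were searched on both strands. They lie in 36.5% of all promoter windows and once in that of CYP1A1 (chr15:74725541-74725625, minus strand, GRCh38.p14), in capitals 57 to 53 bases before the start, and the stretch is shown because CYP1A1 is a standard target of the receptor.
CYP1A1: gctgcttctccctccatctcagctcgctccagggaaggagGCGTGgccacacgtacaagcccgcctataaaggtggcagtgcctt
Of the windows of genes higher with PRL-295, 47.6% held the letters, and of those of lower genes 34.6%. These shares count windows rather than genes. The letters are rich in G and C, as were the transcripts of the higher genes (median GC content 55.9%, 49.2% for all tested genes). The windows were not matched for GC content, and the difference in shares was not tested.

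Keratins and their anchors held many of the differences. In the 4 lists of basal, wound-edge, suprabasal and simple epithelial genes, 18 of 55 tested genes passed (32.7%, beside 1.59% of all genes), 6 higher and 12 lower. Basal, wound-edge and suprabasal genes that passed were mostly lower with PRL-295, and KRT15 and simple epithelial keratins higher. Keratin genes of a type are closely similar in sequence, so reads may be shared among the KRT6 genes and among KRT14, KRT16 and KRT17.

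Among 15 basal and hemidesmosome genes 7 were lower and 1 higher, with a median of -0.528. ITGA6, the α6 integrin of hemidesmosomes (chromosome 2, 172427354 to 172506282, plus strand), stood at 941, 1200 and 873 CPM with CDDO-Me and at 410, 311 and 364 CPM with PRL-295. With DMSO it was 287 to 310 CPM, so PRL-295 was near the control and CDDO-Me high. The difference was 2.78-fold (log2 difference -1.47, 95% interval -1.78 to -1.17, adjusted p = 0.000527) and held under all 22 alternatives. Its partner ITGB4 was 1.72-fold lower (1810, 1200 and 1500 against 876, 820 and 923 CPM, adjusted p = 0.0231). The ITGB4 call was lost without CDDO-Me library 3, DMSO library 2 or PRL-295 library 1, 2 or 3 (adjusted p 0.0519 to 0.101). ITGB4 (adjusted p = 0.104) did not pass in the fit of the 6 compound libraries.

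KRT14 and KRT5, the keratin pair of the basal layer, differed by less. KRT14 stood at 6680, 5450 and 5930 CPM with CDDO-Me and at 3380, 3440 and 3560 CPM with PRL-295, and DMSO, at 4570 to 5360 CPM, lay between the compounds. The fold was 1.74 (adjusted p = 0.00352). KRT5 was 1.6-fold lower (6980 to 7630 against 4370 to 4710 CPM, adjusted p = 0.00239), with DMSO at 5490 to 5650 CPM, again between. Both calls held when any 1 library was left out. The same direction was seen for COL17A1, the transmembrane collagen of hemidesmosomes (1.47-fold, adjusted p = 0.0172), and for LAMA3 (1.44-fold, adjusted p = 0.0356), a laminin chain of the basement membrane, both chosen after their values were seen. COL17A1 was lost without CDDO-Me library 3 or PRL-295 library 1, 2 or 3 (adjusted p 0.0605 to 0.101). LAMA3 was lost without CDDO-Me library 2 or 3, DMSO library 1, 2 or 3 or PRL-295 library 1, 2 or 3 (adjusted p 0.0524 to 0.13) and with GC and length correction (adjusted p = 0.096). COL17A1 (adjusted p = 0.101) and LAMA3 (adjusted p = 0.114) did not pass in the fit of the 6 compound libraries.

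KRT15, a keratin of basal and hair-follicle stem cells, went the other way. It stood at 48.4, 46.7 and 49.8 CPM with CDDO-Me and at 165, 185 and 183 CPM with PRL-295. DMSO was higher than both, at 434, 286 and 418 CPM, and the 3 groups did not overlap. The fold between the compounds was 3.68 (log2 difference 1.88, 95% interval 1.54 to 2.22, adjusted p = 0.000172), and it passed under all 22 alternatives.

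Of 14 wound-edge genes 3 were lower with PRL-295 and none higher, with a median of -0.781. KRT16 (chromosome 17, 41609778 to 41615899, minus strand), a keratin of hyperproliferative epidermis, held 376, 235 and 255 CPM with CDDO-Me and 67.8, 58.0 and 67.4 CPM with PRL-295. DMSO libraries were scattered at 147, 53.8 and 82.0 CPM, and their range included the PRL-295 values. The difference was 4.48-fold (log2 difference -2.16, 95% interval -2.86 to -1.47, adjusted p = 0.00743) and held under all 22 alternatives. KRT6A (1.52-fold, adjusted p = 0.0265) and KRT17 (1.5-fold, adjusted p = 0.0466), other keratins of the wound edge, were lower by less. KRT6A was lost without CDDO-Me library 3, DMSO library 2 or PRL-295 library 1, 2 or 3 (adjusted p 0.0519 to 0.136). KRT17 was lost without CDDO-Me library 1 or 3, DMSO library 2 or 3 or PRL-295 library 1, 2 or 3 (adjusted p 0.0632 to 0.2). Over all 22 alternatives KRT6A passed in 12 and KRT17 in 7. KRT6A (adjusted p = 0.074) and KRT17 (adjusted p = 0.124) did not pass in the fit of the 6 compound libraries.

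Among 17 suprabasal and cornified envelope genes 2 were lower and 1 higher, with a median of -0.771. KRT1, the keratin that replaces KRT5 as cells leave the basal layer, stood at 126, 61.2 and 42.5 CPM with CDDO-Me and at 3.61, 1.45 and 1.93 CPM with PRL-295. DMSO spread from 7.65 to 101 CPM, so the control level was poorly fixed, while no PRL-295 library reached any of the other 6. The fold was 33.0 (log2 difference -5.05, 95% interval -6.89 to -3.20, adjusted p = 0.0137), and the call was lost without PRL-295 library 2 or 3 (adjusted p 0.0637 to 0.0718). KRT1 also did not pass in limma voom with a weight per group (adjusted p = 0.189) or in edgeR at a fold threshold of 1.5 (adjusted p = 0.0595). TGM1, the transglutaminase that crosslinks the cornified envelope, was 3.33-fold lower (17.3, 14.2 and 15.0 against 5.66, 4.69 and 3.63 CPM, adjusted p = 0.00747), a call lost without PRL-295 library 3 (adjusted p = 0.056). KLK5, a protease that sheds corneocytes, was 1.66-fold higher (adjusted p = 0.0215), a call lost without CDDO-Me library 2 or 3, DMSO library 2 or PRL-295 library 2 or 3 (adjusted p 0.05 to 0.101), and with GC and length correction (adjusted p = 0.525). None of 23 tested genes of the epidermal differentiation complex passed, among them S100A2, a calcium-binding protein, at a log2 difference of 0.48 (95% interval 0.11 to 0.85). KLK5 (adjusted p = 0.132) did not pass in the fit of the 6 compound libraries.

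Keratins of simple and mucosal epithelia were higher with PRL-295 where they passed: 4 of 9 tested passed, none was lower, and the median was 0.653. KRT7 stood at 633, 427 and 534 CPM with CDDO-Me and at 1000, 1160 and 1070 CPM with PRL-295. DMSO libraries held 1260 to 1510 CPM, so PRL-295 was closer to the control (2.03-fold between the compounds, adjusted p = 0.00589). KRT7 and KRT86 overlap in the annotation. KRT19 was 2.02-fold higher (56.5 to 74.3 against 115 to 148 CPM, adjusted p = 0.00676) and KRT18 1.57-fold (374 to 421 against 588 to 667 CPM, adjusted p = 0.00747). With GC and length correction KRT19 (adjusted p = 0.097) and KRT18 (adjusted p = 0.16) did not pass, and KRT18 did not without PRL-295 library 3 (adjusted p = 0.058). KRT81, a hair keratin that overlaps KRT86 on the same strand, was 2.3-fold higher (adjusted p = 0.0211), and was lost without CDDO-Me library 3 or PRL-295 library 2 or 3 (adjusted p 0.0601 to 0.114). KRT8 overlaps KRT18 on the other strand, and the strand setting of the counting is not given in the sources used here. KRT7 (adjusted p = 0.0596), KRT19 (adjusted p = 0.0647), KRT18 (adjusted p = 0.076) and KRT81 (adjusted p = 0.109) did not pass in the fit of the 6 compound libraries.

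**Figure D3:**
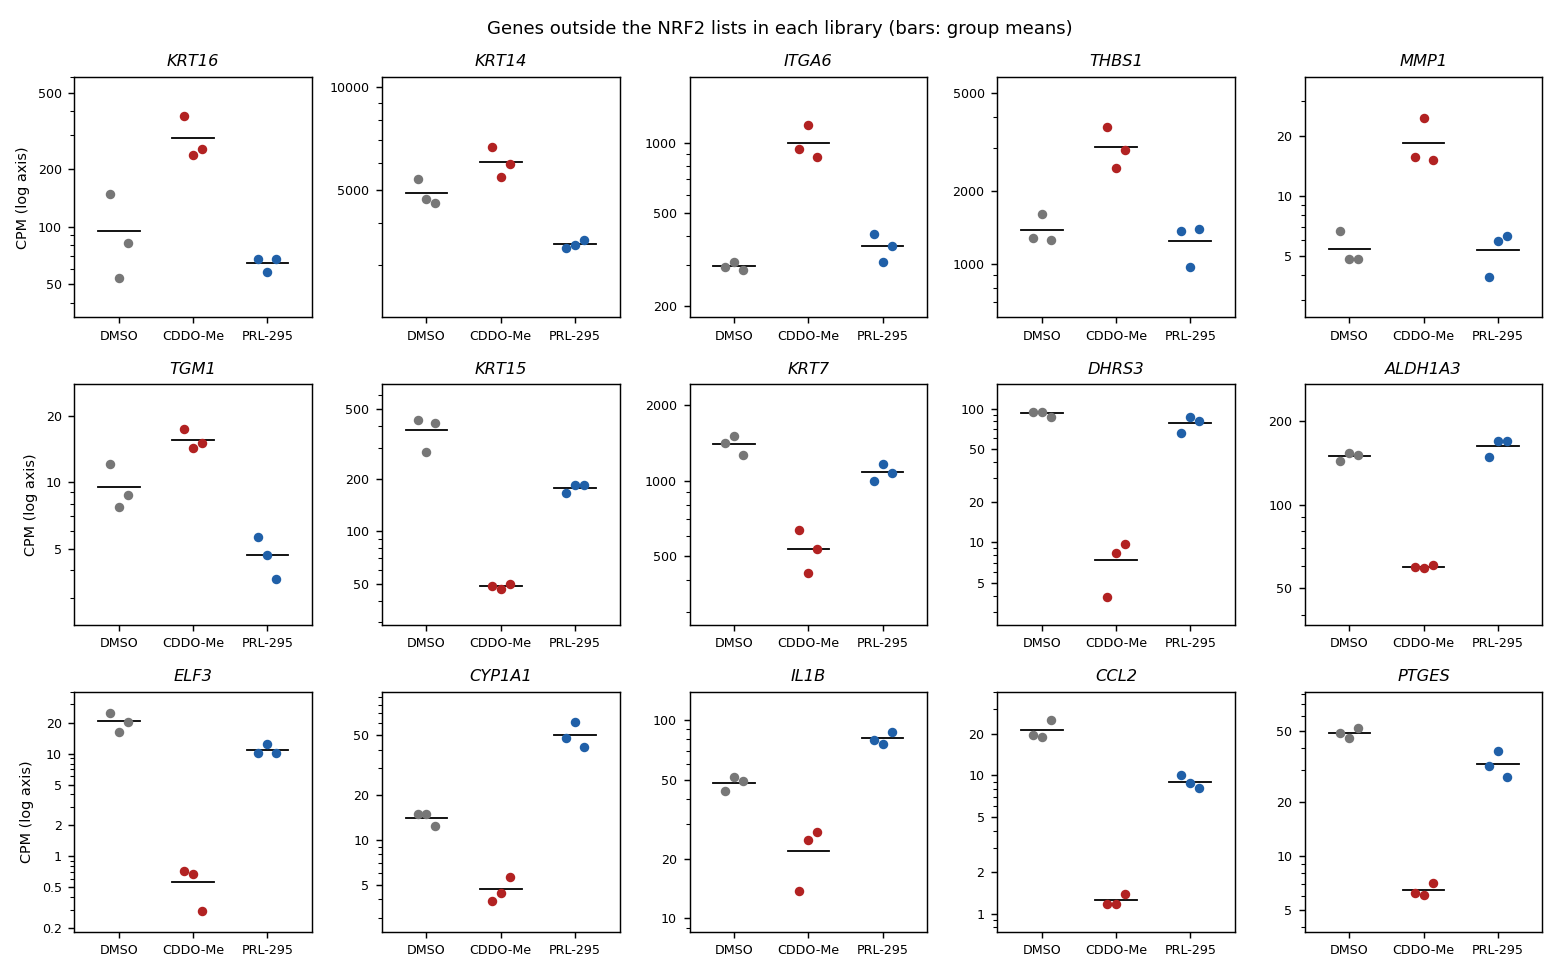
CPM on a log axis for 15 genes in each library, with a point per library and a bar at the mean of each group of 3. KRT16, ITGA6 and THBS1 are high with CDDO-Me, KRT15, DHRS3, ALDH1A3, ELF3 and CCL2 are low with CDDO-Me, and CYP1A1 and IL1B are highest with PRL-295.

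Desmosomal genes that passed were lower with PRL-295, while the claudins that passed went both ways. Of 22 tested junction genes 5 were lower and 2 higher, beside 0.684% lower and 0.905% higher over all tested genes. DSP, the plakin that ties desmosomes to keratin filaments, stood at 1760, 1360 and 1550 CPM with CDDO-Me and at 838, 544 and 893 CPM with PRL-295, and DMSO lay between the compounds at 1030 to 1170 CPM. It was 2.05-fold lower (adjusted p = 0.0135), a call lost without CDDO-Me library 3 (adjusted p = 0.0561). The desmocollin DSC3 was 2.1-fold lower (adjusted p = 0.0254), which was lost without CDDO-Me library 3, DMSO library 2 or PRL-295 library 3 (adjusted p 0.0568 to 0.0613). DSC2 (1.87-fold lower, adjusted p = 0.0308) was lost without CDDO-Me library 2 or 3, DMSO library 1, 2 or 3 or PRL-295 library 1, 2 or 3 (adjusted p 0.0552 to 0.0772), and with GC and length correction (adjusted p = 0.166). CLDN7, a tight junction claudin, was 1.69-fold higher (181 to 207 against 291 to 364 CPM, adjusted p = 0.0074), and did not pass without PRL-295 library 3 (adjusted p = 0.0563) or with GC and length correction (adjusted p = 0.145). CLDN1, another claudin, was 1.64-fold lower (144 to 171 against 84.7 to 99.4 CPM, adjusted p = 0.0115), and CDH3, P-cadherin, 1.47-fold higher (558 to 589 against 775 to 865 CPM, adjusted p = 0.0162), both chosen after their values were seen. CLDN1 was lost without PRL-295 library 2 or 3 (adjusted p 0.0543 to 0.0795) and with GC and length correction (adjusted p = 0.0595). CDH3 was lost without CDDO-Me library 3 or PRL-295 library 2 or 3 (adjusted p 0.0601 to 0.11) and with GC and length correction (adjusted p = 0.063). DSP (adjusted p = 0.074), DSC3 (adjusted p = 0.107), DSC2 (adjusted p = 0.121), CLDN7 (adjusted p = 0.076), CLDN1 (adjusted p = 0.0761) and CDH3 (adjusted p = 0.109) did not pass in the fit of the 6 compound libraries.

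In the lists of cell migration and matrix and of matrix proteolysis, the genes that passed were lower with PRL-295. Of 20 migration integrins and provisional matrix genes 3 were lower and none higher (median -0.351), and of 19 genes of matrix proteolysis 4 were lower and none higher (median -0.198). The share lower over all tested genes was 0.684%. THBS1, the matrix glycoprotein thrombospondin, stood at 3640, 2470 and 2940 CPM with CDDO-Me and at 1360, 969 and 1390 CPM with PRL-295. DMSO ran from 1260 to 1610 CPM, overlapping PRL-295 and well under CDDO-Me (2.43-fold, log2 difference -1.28, 95% interval -1.67 to -0.89, adjusted p = 0.00589). That call held when any 1 library was left out. COL7A1, the anchoring fibril collagen, was 2.09-fold lower (adjusted p = 0.0193) and the matrix glycoprotein TNC 2.07-fold (adjusted p = 0.0172). For COL7A1 the DMSO range (327 to 367 CPM) overlapped PRL-295 (243 to 349 CPM), and CDDO-Me lay over both (475 to 763 CPM). For TNC the DMSO range (54.4 to 69.9 CPM) overlapped CDDO-Me (51.2 to 70.2 CPM) instead, and PRL-295 lay under both (25.4 to 35.7 CPM). COL7A1 was lost without CDDO-Me library 3 or PRL-295 library 2 or 3 (adjusted p 0.056 to 0.0801). TNC was lost without CDDO-Me library 3 or PRL-295 library 1 or 2 (adjusted p 0.0605 to 0.0741). COL7A1 (adjusted p = 0.0972) and TNC (adjusted p = 0.076) did not pass in the fit of the 6 compound libraries.

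The collagenases were scarce and lower with PRL-295. MMP1 stood at 15.7, 24.6 and 15.2 CPM with CDDO-Me and at 3.94, 5.91 and 6.29 CPM with PRL-295, where DMSO held 4.82 to 6.65 CPM. The PRL-295 and DMSO ranges overlapped (3.43-fold between compounds, adjusted p = 0.0112), and the call was lost without PRL-295 library 3 (adjusted p = 0.058). MMP13 was 3.79-fold lower (6.05 to 6.76 against 1.49 to 2.09 CPM, adjusted p = 0.00996), with DMSO between at 3.77 to 5.04 CPM. It did not pass without PRL-295 library 2 or 3 (adjusted p 0.0543 to 0.0835). SERPINE2, a protease nexin that inhibits plasminogen activators, held 201, 307 and 258 CPM with CDDO-Me and 120, 133 and 125 CPM with PRL-295, both over DMSO (70.1 to 80.2 CPM). It was 2.03-fold lower (adjusted p = 0.0074), and was lost without PRL-295 library 3 (adjusted p = 0.0718) and with GC and length correction (adjusted p = 0.065). MMP1 (adjusted p = 0.0596), MMP13 (adjusted p = 0.0596) and SERPINE2 (adjusted p = 0.0596) did not pass in the fit of the 6 compound libraries.

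Among 20 tested genes of YAP, TEAD and their targets 4 were lower and none higher, with a median of -0.465. Over all tested genes 0.684% were lower. YAP and TEAD are the transcription pair that answers cell spreading and tension. ANKRD1 stood at 68.5, 89.8 and 87.6 CPM with CDDO-Me and at 41.0, 32.0 and 38.4 CPM with PRL-295, the latter close to DMSO (25.2 to 35.5 CPM). It was 2.21-fold lower (adjusted p = 0.00974), and did not pass without CDDO-Me library 3 or PRL-295 library 3 (adjusted p 0.0506 to 0.0613). YAP1 itself was 1.48-fold lower (adjusted p = 0.0367), a call lost without CDDO-Me library 2 or 3, DMSO library 1, 2 or 3 or PRL-295 library 1, 2 or 3 (adjusted p 0.0632 to 0.166) and with GC and length correction (adjusted p = 0.0644). The remaining calls were F3 (1.6-fold lower, adjusted p = 0.0356) and CRIM1 (1.58-fold lower, adjusted p = 0.0271). F3 was lost without CDDO-Me library 2 or 3, any DMSO library, or PRL-295 library 2 or 3 (adjusted p 0.066 to 0.154). CRIM1 was lost without CDDO-Me library 3 or any DMSO or PRL-295 library (adjusted p 0.051 to 0.0983). YAP1 (adjusted p = 0.152), F3 (adjusted p = 0.134) and CRIM1 (adjusted p = 0.121) did not pass in the fit of the 6 compound libraries.

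Single inflammatory genes were higher with PRL-295, at most 2 in each list described here. IL1B, the secreted interleukin 1β, stood at 13.7, 24.9 and 27.4 CPM with CDDO-Me, 43.8 to 51.8 CPM with DMSO and 79.2, 76.1 and 87.0 CPM with PRL-295. The groups did not overlap, and the compounds lay on opposite sides of DMSO. The fold was 3.68 (log2 difference 1.88, 95% interval 1.39 to 2.37, adjusted p = 0.00261), and it passed under all 22 alternatives. It was the 1 of 19 tested interleukins and cytokines of its list to pass. CCL2, the chemokine that draws monocytes, held 1.19, 1.19 and 1.4 CPM with CDDO-Me and 10.1, 8.88 and 8.07 CPM with PRL-295, against 19.1 to 25.2 CPM with DMSO. Both compounds were under DMSO, CDDO-Me further (7.15-fold between them, log2 difference 2.84, 95% interval 2.34 to 3.34, adjusted p = 0.000168).

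Chemokines as a list had 2 of 13 higher, CCL2 and CXCL16, with a median of 0.498. CXCL16 was 1.51-fold higher (adjusted p = 0.0279), and was lost without CDDO-Me library 2 or 3, DMSO library 2 or 3 or PRL-295 library 1, 2 or 3 (adjusted p 0.0549 to 0.126), and with GC and length correction (adjusted p = 0.384). Among 39 interferon-stimulated genes 2 were higher and none lower, with a median of 0.311, and the share higher over all tested genes was 0.905%. They were IRF1, a transcription factor of the interferon response (1.84-fold, adjusted p = 0.0172), and IFIT3, an antiviral protein (1.71-fold, adjusted p = 0.0236). IRF1 did not pass without PRL-295 library 2 or 3 (adjusted p 0.0551 to 0.0709). IFIT3 did not without CDDO-Me library 3 or PRL-295 library 1 or 3 (adjusted p 0.0606 to 0.0809) or with GC and length correction (adjusted p = 0.235). DMSO levels of IFIT3, at 244 to 341 CPM, were over both compounds (CDDO-Me 94.4 to 111 CPM, PRL-295 157 to 196 CPM). CXCL16 (adjusted p = 0.138), IRF1 (adjusted p = 0.122) and IFIT3 (adjusted p = 0.0631) did not pass in the fit of the 6 compound libraries.

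PTGES, the inducible prostaglandin E synthase, stood at 6.23, 6.05 and 7.07 CPM with CDDO-Me and at 31.6, 38.3 and 27.5 CPM with PRL-295. DMSO was higher still, at 45.5 to 51.5 CPM (5.04-fold between the compounds, log2 difference 2.33, 95% interval 1.95 to 2.71, adjusted p = 0.000112). LTB4R, a leukotriene B4 receptor that overlaps LTB4R2 on the same strand, was 1.89-fold lower with PRL-295 (95.1 to 111 against 53.6 to 57.3 CPM, adjusted p = 0.00676), a call lost without PRL-295 library 3 (adjusted p = 0.056). TNFAIP2, an NF-κB target, was 3.46-fold higher (20.2, 10.4 and 10.2 against 40.3, 54.1 and 46.7 CPM, adjusted p = 0.00694), with DMSO at 62.9 to 77.0 CPM. It was 1 of 19 NF-κB list genes to pass. TNFAIP2 (adjusted p = 0.0631) did not pass in the fit of the 6 compound libraries.

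ELF3 (chromosome 1, 202007945 to 202017188, plus strand), an epithelium-specific ETS transcription factor, was nearly absent with CDDO-Me. It stood at 0.72, 0.679 and 0.296 CPM with CDDO-Me, at 10.1, 12.3 and 10.1 CPM with PRL-295 and at 16.3 to 25.0 CPM with DMSO. PRL-295 lay under DMSO, and CDDO-Me far under both (18.7-fold between the compounds, log2 difference 4.23, 95% interval 3.50 to 4.95, adjusted p = 0.000146). Of 21 tested epithelial transcription factors it was the 1 that passed, and their median was -0.057.

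Signals between cells differed at single genes. BMP4, a bone morphogenetic protein, was 3.0-fold lower (29.3, 20.9 and 19.6 against 8.12, 8.15 and 7.03 CPM, adjusted p = 0.00589), with DMSO at 6.53 to 8.39 CPM, overlapping PRL-295. It did not pass without PRL-295 library 3 (adjusted p = 0.0532). ID1, a target of BMP signalling, was 1.86-fold higher with PRL-295 (75.8 to 81.9 against 132 to 179 CPM, adjusted p = 0.00809), and did not pass with GC and length correction (adjusted p = 0.199). The cytokine LIF was 2.14-fold higher (adjusted p = 0.0115), a call lost without PRL-295 library 3 (adjusted p = 0.0709). FOSL1, an AP-1 subunit, stood at 313, 294 and 342 CPM with CDDO-Me and at 497, 548 and 502 CPM with PRL-295, against 262 to 294 CPM with DMSO, so that PRL-295 was the group farther from the control. It was 1.63-fold higher (adjusted p = 0.00694), and did not pass with GC and length correction (adjusted p = 0.238). BIK, a pro-apoptotic BH3 protein, was 2.71-fold higher (9.99, 15.3 and 11.2 against 29.7, 39.7 and 29.5 CPM, adjusted p = 0.00676), with DMSO at 29.1 to 33.9 CPM. SLC2A3, a glucose carrier, was 2.34-fold lower (adjusted p = 0.0112), a call lost without PRL-295 library 3 (adjusted p = 0.102). ID1 (adjusted p = 0.076), LIF (adjusted p = 0.0688), FOSL1 (adjusted p = 0.0631), BIK (adjusted p = 0.0596) and SLC2A3 (adjusted p = 0.0596) did not pass in the fit of the 6 compound libraries.

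Under all 22 alternatives, 22 of the 258 genes passed. They were HMOX1, KRT16, ITGA6, MN1 and MXRA5, which were lower with PRL-295, and a set of higher genes. Among the higher were KRT15, CYP1A1, DHRS3, ALDH1A3, IL1B and PTGES. The others higher were TINAGL1, CALB2, PRSS22, CYSRT1, UPP1, APOBEC3B, ADAM19, LTBP3, GRB7, GALNT12 and ANXA11. Of these, MN1, MXRA5, UPP1, APOBEC3B, ADAM19, LTBP3, GRB7, GALNT12 and ANXA11 were chosen after their values were seen, by this count of settings. STRA6, CCL2 and ELF3 were not among the 22 genes, so their calls did not hold in every alternative.

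In all of the higher genes of this set, CDDO-Me had the lowest of the 3 group means, and 3 of them are described here. TINAGL1, a secreted matricellular protein, stood at 68.9, 108 and 121 CPM with CDDO-Me, at 410, 536 and 417 CPM with PRL-295 and at 322 to 403 CPM with DMSO (4.58-fold between the compounds, adjusted p = 0.000418). ADAM19, a membrane metalloprotease, held 179, 117 and 146 CPM with CDDO-Me, 371, 374 and 379 CPM with PRL-295 and 452 to 509 CPM with DMSO (2.54-fold, adjusted p = 0.00114). UPP1, which splits uridine, held 103, 96.9 and 105 CPM with CDDO-Me, 272, 334 and 298 CPM with PRL-295 and 233 to 235 CPM with DMSO (2.96-fold, adjusted p = 6.12e-05). PRL-295 lay over DMSO for TINAGL1 and UPP1 and under it for ADAM19. HAS3, a hyaluronan synthase chosen after its values were seen, was 2.04-fold higher (97.4 to 115 against 203 to 232 CPM, adjusted p = 0.00114), with DMSO at 242 to 271 CPM.

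Large log2 differences also occurred in scarce transcripts. C2orf54 was 14.7-fold higher (0, 21 and 19 reads with CDDO-Me and 158, 201 and 207 with PRL-295, adjusted p = 0.0201). The call did not hold without CDDO-Me library 3, DMSO library 1 or 2 or PRL-295 library 3 (adjusted p 0.0503 to 0.0682). DSG4, a desmoglein of hair and upper epidermis, was 8.03-fold lower (3.81 to 7.37 against 0.495 to 0.821 CPM, adjusted p = 0.0135), and was lost without PRL-295 library 2 or 3 (adjusted p 0.0669 to 0.0885). SLC6A20, a proline carrier, was 5.83-fold lower (4.82 to 7.67 against 0.821 to 1.18 CPM, adjusted p = 0.0102), with DMSO at 0.83 to 1.22 CPM, and did not pass without PRL-295 library 1 or 3 (adjusted p 0.0532 to 0.0684). C2orf54 (adjusted p = 0.166) and DSG4 (adjusted p = 0.0528) did not pass in the fit of the 6 compound libraries.

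Many programmes had no gene past the threshold. Of 56 lists, 24 had no call, among them proteasome subunits (34 tested, median 0.129), heat shock proteins (25, -0.13), the unfolded protein response (24, -0.125), DNA replication (30, 0.229), mitosis (28, 0.036), p53 targets (24, -0.2), oxidative phosphorylation (30, 0.311), MHC class I presentation (18, 0.336) and metallothioneins (12, 0.009). For 28 ribosomal proteins, 27 log2 differences were above 0 and all lay between -0.03 and 0.53. RPL7A, of the large subunit, was 2050 to 2280 CPM with CDDO-Me and 2570 to 3260 CPM with PRL-295 (adjusted p = 0.0956). With GC and length correction its log2 difference went from 0.40 to 0.02, and that of RPS2, of the small subunit, from 0.23 to -0.12. The median of the 28 ribosomal proteins fell less, from 0.346 to 0.196, and lay between 0.174 and 0.438 under all settings. The 95% interval of the ratio of PRL-295 to CDDO-Me was 1.04 to 1.51 for the heat shock chaperone HSPA8 and 0.742 to 1.12 for HSPA5, the chaperone of the endoplasmic reticulum. The proliferation marker MKI67 ranged from 770 to 1230 CPM with CDDO-Me and from 364 to 781 CPM with PRL-295 (log2 difference -0.63, 95% interval -1.20 to -0.06, adjusted p = 0.246).

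**Figure D4:**
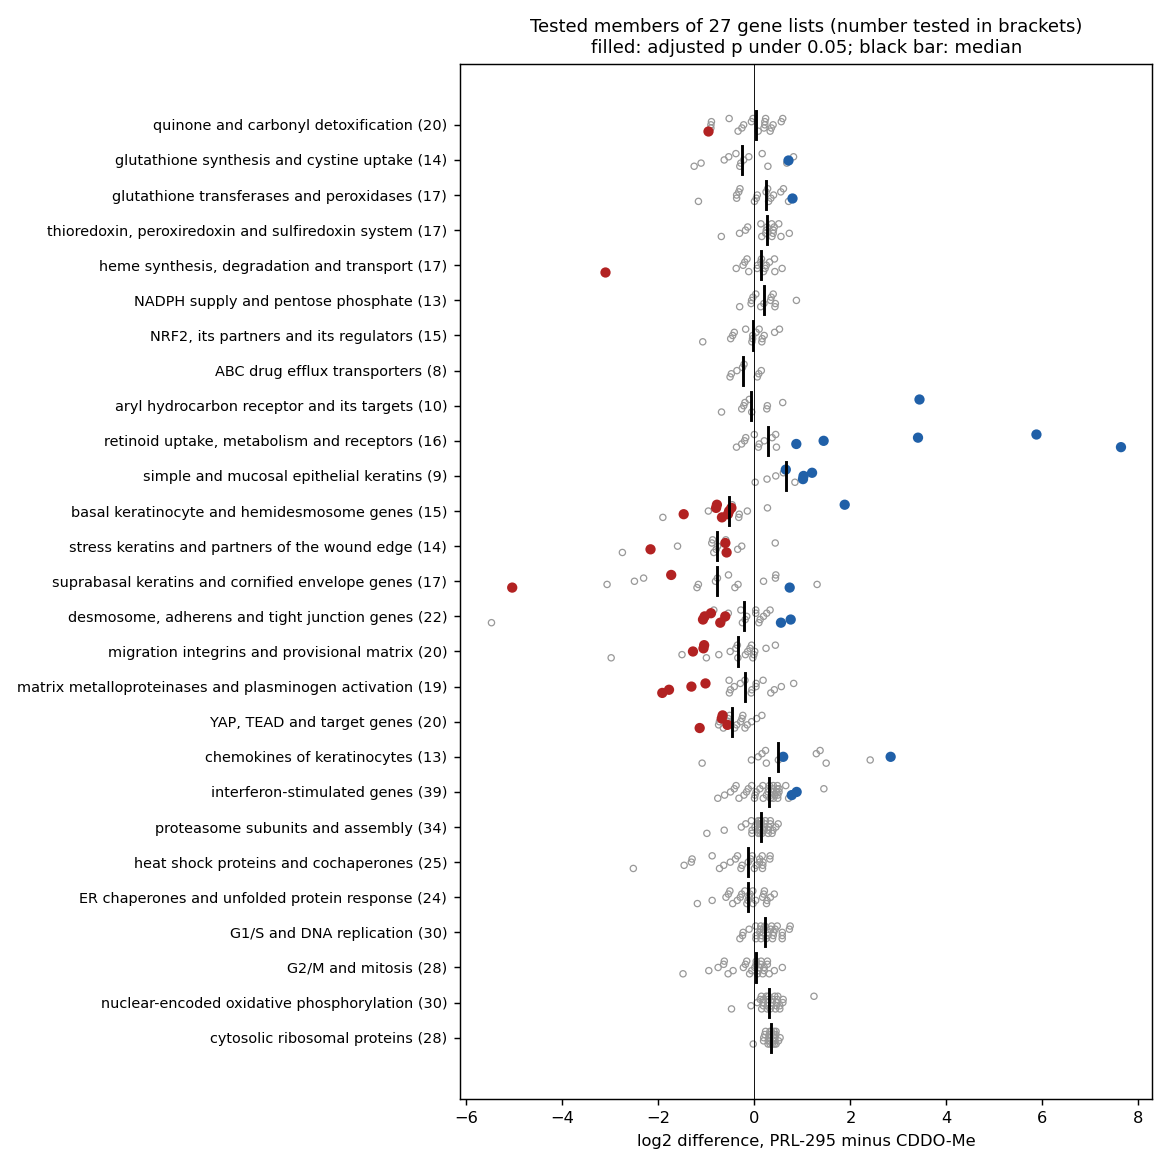
Log2 difference PRL-295 minus CDDO-Me (x axis) of each tested member of selected gene lists (y axis), with filled points for an adjusted p under 0.05 and a black bar at each list median. Simple epithelial keratins have a median of 0.653 and wound-edge genes of -0.781, while proteasome, cell cycle and ribosomal lists hold no called gene.

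The DMSO level usually lay nearer to PRL-295 for the genes that separated the compounds. Its mean log2 CPM was nearer to PRL-295 than to CDDO-Me for 144 of the 147 higher and 89 of the 111 lower genes, 233 of 258 or 90.3%, beside 63.8% of all tested genes. The range of the 3 PRL-295 libraries overlapped that of the 3 DMSO libraries for 142 of the 258, and the CDDO-Me range did for 15. These overlap counts have no share over all tested genes beside them. The PRL-295 and CDDO-Me ranges were apart for all 258, so overlap of either compound with DMSO makes overlap of the other less likely. Whether 142 against 15 is unusual was not tested. DMSO lay between the compounds for 123 of the 258, as for KRT14, KRT5, CYP1A1 and IL1B. For 133 it lay beyond PRL-295, with CDDO-Me at the other end, as for KRT15, STRA6, ELF3 and PTGES, and for 2 it lay beyond CDDO-Me. These are positions of means and ranges, and no test of either compound against DMSO enters them. Only for nearness is a share over all tested genes given.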

How the data were processed

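RNA was sequenced from HaCaT cells in 9 libraries (3 each with DMSO, CDDO-Me and PRL-295). Per the labels' protocols, paired-end reads were aligned with STAR 2.5 and counted with HTSeq 0.6.1, and the submitters' processing notes name hg38. The annotation release and strand setting are not given in the sources used here. The authors deposited raw read counts for 58676 genes. The deposited FPKM matched counts scaled by gene length and by the library total within 0.1% for 100% of values, and served for 2 alternatives. Counts were tested with edgeR 4.0.16 (R 4.3.3) in a quasi-likelihood fit of all 9 libraries, with filterByExpr, TMM scaling and Benjamini-Hochberg adjustment over 16239 genes at a threshold of 0.05. The test was also run on counts simulated with the means and dispersions of this fit, with the same dispersion for all groups. That run could not reflect the wider spread of the CDDO-Me libraries, and no result here rests on it. Intervals are at 95%. Read floors cover counting error only, because it is not known whether PCR copies entered the counts.

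Named genes were the 12 largest differences each way (past the threshold, mean of at least 1 CPM, no overlap), up to 4 called members of each of 56 lists or, where none passed, the 2 most abundant, and an NRF2 panel, 2 genes of which are not reported here. Not all named genes are described. The comparison and the lists were chosen with earlier results of these data known. Of 1091 list symbols 1090 matched. Coordinates and GC content came from GENCODE. The alternatives used DESeq2 1.42.0, limma 3.58.1, other scalings and filters, a replicate block, GC and length correction, and fits without each library.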

Additional observations from a re-analysis of the deposited data

How the results depend on the processing

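There were 258 called genes, 147 higher and 111 lower. Leaving out 1 library at a time gave 60 to 285 called genes, 43 to 167 higher and 17 to 118 lower. The fewest came without PRL-295 library 3 (60, all among the 258) and the most without CDDO-Me library 1 (285). The 6 compound libraries only gave 45 (27 higher, 18 lower), DESeq2 1035 (568, 467), no low-count filter 1250 (561, 689), a fold threshold of 1.5 gave 26 (20, 6), and voom with a weight per group 136 (69, 67). GC and length correction gave 237 (94, 143), and 179 (73, 106) with the replicate block. The replicate block alone gave 156 (95, 61), 149 of them among the 258. Correlations of same-numbered libraries' deviations from their group means ran from -0.137 to 0.104, and CDDO-Me library 2 correlated best with PRL-295 library 1 (0.154). With 3 libraries per group, these values cannot tell whether same-numbered libraries shared a day or batch. The labels do not say that a number marks one. The remaining settings gave counts within 1.5 times the first. Why the counts differ was not tested.

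Of 96 called named genes none changed direction in any of 22 alternatives; 1596 of their values stayed past the threshold and 515 did not. Among 60 named genes not called, 36 values passed the threshold in an alternative, so a missed call also depended on the setting. The following of the 60 changed sign. With GC and length correction, and second with the replicate block too, the log2 difference was 0.09 and 0.09 for FASN, -0.16 and -0.13 for SCD, -0.25 and -0.25 for PGD, -0.45 and -0.38 for MT-CO1, -0.06 and -0.05 for PSMD2, -0.06 and -0.06 for DKK3, -0.07 and -0.06 for KEAP1, -0.08 and -0.08 for TPX2, -0.12 and -0.09 for RPS2, -0.04 and -0.04 for CALR, -0.13 and -0.12 for PSMB7, and -0.02 and -0.03 for S100A11. SCD was also -0.00 with 6 libraries, DESeq2 and RLE scaling, -0.03 with library totals and -0.02 with FPKM at either pseudocount (0.1 or 1), and PGD -0.00 with library totals and with FPKM. Leaving out 1 library at a time, the log2 difference ran from -0.25 to 0.00 for CANX, -0.26 to 0.01 for HSPA5, -0.18 to 0.17 for FASN, -0.17 to 0.09 for PLK2, -0.07 to 0.09 for SCD, -0.02 to 0.09 for PGD, -0.00 to 0.12 for MT-CO1 and -0.09 to 0.46 for NPM1. Depth limits STRA6, CYP26A1 and C2orf54, whose CDDO-Me libraries held few or no reads.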
